A study of Mus musculus with 27 samples.

Results

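Single myofibers of *Smn1*deltaSKM mice, which lack a working *Smn1* gene in skeletal muscle, were compared with myofibers of wild-type (WT) mice across the genes on the array. The comparison took every array that the labels give as WT or as *Smn1*deltaSKM without transplanted cells, 20 of the 27 arrays of the series. Of these, 8 arrays came from 2 WT mice and 12 from 3 *Smn1*deltaSKM mice, with 1 tibialis anterior myofiber per array. All mice were male and 3 months old. The *Smn1*deltaSKM mice carried HSA-Cre with *Smn* F7/F7 alleles, in which Cre recombinase driven by the human skeletal actin promoter removes a floxed exon of *Smn1* from muscle fibers while other cells of the mouse keep it. The study calls the donors of control myofibers C57BL/6 GFP+ mice in its methods and littermates elsewhere, and the labels give only wild type. Whether the fibers differ in genes outside the known mitochondrial and autophagy sets was the question addressed here. A value is the log2 signal of a probe minus the 75th percentile of its array, so that 0 lies at that percentile and a difference of 1 is a doubling. Values of different probes are not compared with each other.

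SMN, the protein of *Smn1*, works with the Gemin proteins to load the ring of Sm proteins onto the small nuclear RNAs that cut introns out of pre-mRNA. Too little SMN causes spinal muscular atrophy, in which motor neurons die, and skeletal muscle is among the other tissues that need it. A myofiber is a single cell with many nuclei, filled with sarcomeres that shorten when calcium leaves the sarcoplasmic reticulum, and it draws energy from glycogen, creatine phosphate and fat.

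Between 23871 and 34012 probes had a value on a WT array (median 25156) and between 23183 and 37595 on a *Smn1*deltaSKM array (median 31433.5), and no spot was saturated. All 8 WT arrays lay on 1 slide, and the 12 *Smn1*deltaSKM arrays lay on 3 other slides scanned on other days, so that batch and genotype cannot be told apart and no within-batch value can be given. The 14 myofiber markers were well above the background, *Xist* was not above it on any array, and Y-linked genes were present, as in males. Of 4 Y-linked genes 2 were tested, *Ddx3y* (-1.54) and *Eif2s3y* (-1.29), both lower in *Smn1*deltaSKM but not called. Summed levels of the 4 ran from 3.81 to 10.3 in WT and from 1.26 to 4.48 in *Smn1*deltaSKM. WT array 7 stood apart from the other WT arrays in non-muscle genes. Its summed level of 12 fibroblast markers was 131 times the 75th percentile, against 2.24 to 5.46 on the other WT arrays, and its summed red blood cell markers reached 49.2 against 0.534 to 1.58. Fibroblast markers also moved with the genotype. Their summed level lay between 7.58 and 44.7 on the *Smn1*deltaSKM arrays, above every WT array other than array 7, and their part in the results was not tested. The summed level of the 14 myofiber markers ran from 2939 to 5287 in WT and from 2055 to 3455 in *Smn1*deltaSKM, which overlapped. Of these markers 6 were called lower and 1 higher.

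Of 17059 genes tested, limma called 3705 at an adjusted p under 0.05, or 21.7% of all. Higher levels in *Smn1*deltaSKM were called for 1308 genes (7.67%) and lower levels for 2397 (14.1%). Lower genes were 64.7% of the calls, but 44.1% with arrays centred on the median of probes seen everywhere and 31.7% with the 75th percentile taken over those probes. Over all genes the median difference was -0.14, moving to between -0.10 and 0.18 under other scalings, so the lists below are set against the median of all genes. Counts of called list members are to be read beside the 7.67% higher and 14.1% lower of all genes. Called differences were at least 0.81 in size, and 553 of them were at least 4-fold. The calls rested on both WT mice: leaving out either of them left limma with 0 calls, although 3623 genes (WT mouse 1 left out) and 4656 genes (WT mouse 2 left out) had an unadjusted p below 0.05. Leaving out *Smn1*deltaSKM mouse 1, 2 or 3 gave 7385, 1377 and 1590 calls. With slide as a random block 94 genes (0.551%) were called. The difference also varied with the level of a gene. With genes split by level into 5 equal bins, its median was -0.43 in the brightest bin and 0.12 in the second dimmest.

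**Figure D1:**
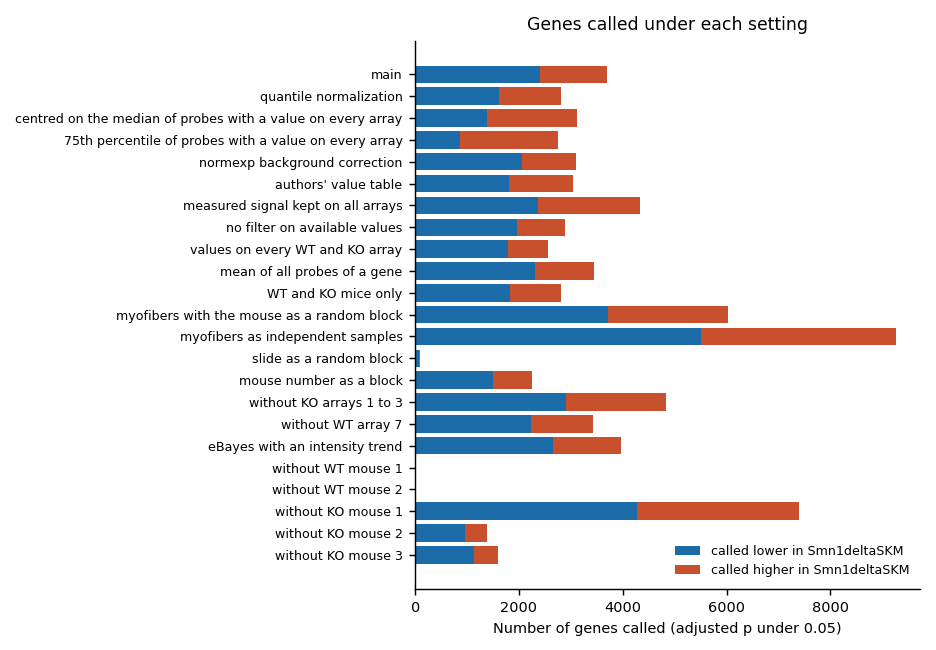
Number of genes called lower (blue) and higher (orange) in *Smn1*deltaSKM (KO) than in WT at an adjusted p under 0.05, on the x axis, for each way of processing the arrays, on the y axis. No bar is seen without either WT mouse, and the bar for slide as a random block holds 94 genes.

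The targeted gene was read by a pair of probes that behaved differently. The probe with the brighter signal hybridises to bases of the *Smn1* transcript from position 505, at chr13:100898171-100898230 of mm9, and is shown because it marks a part of the transcript for which no fall was called:

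Smn1 probe: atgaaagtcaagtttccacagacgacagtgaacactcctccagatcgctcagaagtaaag

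On this probe the WT myofibers lay between 1.59 and 2.91 (median 2.44) and the *Smn1*deltaSKM myofibers between 1.83 and 3.37 (median 2.57). The genotypes overlapped, and *Smn1*deltaSKM minus WT came to 0.19 (standard error 0.352, adjusted p = 0.712 by limma). The dimmer probe, at chr13:100907539-100907598, lay between 0.63 and 2.38 in WT (median 1.97) and between -1.41 and 0.66 in *Smn1*deltaSKM (median 0.36), and 11 of 12 *Smn1*deltaSKM myofibers lay below every WT myofiber. It fell by 1.68 (standard error 0.366, adjusted p = 0.0203 by limma). Whether either probe lies in the removed exon was not determined, and a probe outside it checks nothing about the deletion.

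**Figure D2:**
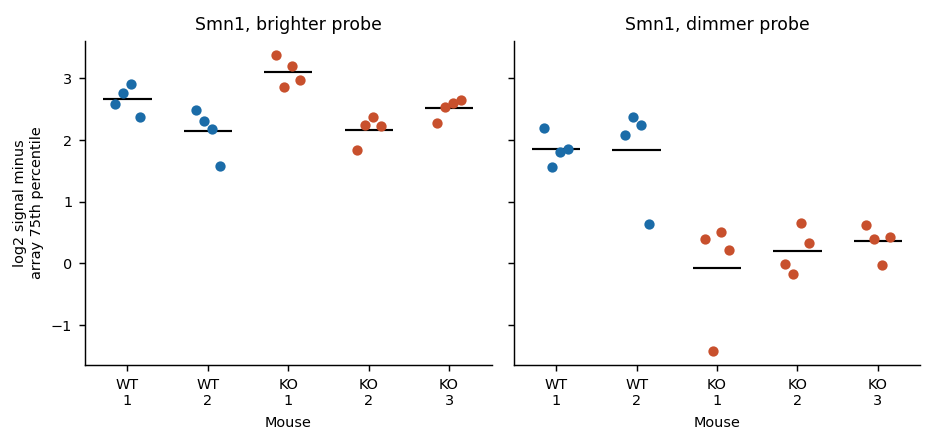
Log2 signal minus the array's 75th percentile (y axis) of the brighter and the dimmer *Smn1* probe in each myofiber, by mouse (x axis, KO is *Smn1*deltaSKM). Points are myofibers and bars are mouse means. The genotypes overlap on the brighter probe and are apart in mouse means on the dimmer one.

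Of the other 73 genes tested within 5 Mb of *Smn1* on chromosome 13, 14 (19.2%) were called, 6 higher and 8 lower, with a median difference of -0.13, both near the values over all genes. *Serf1*, which lies beside *Smn1*, differed by -0.92 (limma, adjusted p = 0.0936).

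The largest rises and falls were named among called genes outside the mitochondrial and autophagy sets of the study with values on at least 6 WT and 9 *Smn1*deltaSKM arrays, which leaves out genes seen on fewer WT arrays such as *Rrad* and *Cxcl1*. *Zxdb*, an X-linked zinc finger gene, lay between -1.99 and 2.82 in WT (median 0.31) and between 3.35 and 7.07 in *Smn1*deltaSKM (median 5.38), a rise of 5.08 (standard error 0.626, adjusted p = 0.0067). All 12 *Smn1*deltaSKM myofibers were above all 8 WT myofibers. *Foxp3*, the transcription factor that marks regulatory T cells, ran from -1.46 to 2.74 in WT (median 0.16) and from 2.26 to 7.32 in *Smn1*deltaSKM (median 4.67), with 11 of 12 myofibers above every WT one. *Fbxo39*, an F-box gene, ran from -1.17 to 5.32 in WT (median 0.80) and from 5.50 to 6.40 in *Smn1*deltaSKM (median 6.19). *Fbxo39* rose by 4.13 and was the one of the 12 rises named by this rule still called when slide was a random block (limma, adjusted p = 0.00217). *Egln2*, a prolyl hydroxylase that senses oxygen, rose by 3.96 on its brighter probe, from between 2.33 and 3.15 to between 4.99 and 8.32, while its other probe differed by -0.06 and normexp background correction brought the brighter one to 0.09, not called. *Vasn*, a membrane protein that binds TGF-beta, rose by 3.66, *Adamts1*, a secreted metalloprotease, by 3.62 and *Cd300lf*, a receptor of myeloid cells, by 3.59.

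Among the 12 falls named by the same rule, *Plin3*, a coat protein of lipid droplets, ran from 2.64 to 4.69 in WT (median 3.19) and from -1.67 to 1.56 in *Smn1*deltaSKM (median 0.26), a fall that reached all 12 myofibers. *Plin3* fell by 3.34 (standard error 0.407, adjusted p = 0.0067). *Ampd1*, the AMP deaminase of muscle, ran from 4.61 to 6.21 in WT (median 5.98) and from 0.78 to 3.61 in *Smn1*deltaSKM (median 2.71), and fell by 3.20. The genotypes did not overlap in *Ampd1*, *Plin3*, *Kalrn* (a guanine nucleotide exchange factor, -3.06, with -1.27, 1.09 and 0.30 on its other probes), *Cyb5d2* (a heme-binding protein gene, -3.04) and *Cdkl4* (a kinase gene, -2.95). Nor did they in *Acvr1b*, *Rbm25* and *Stim2*, given below, on the arrays with a value. Here and elsewhere, the share of all tested genes without such overlap was not counted, and large differences favour it. *Acvr1b*, a type I receptor for activin and myostatin, fell by 3.01, its second probe fell by 2.94, and it kept its call under the slide block (limma, adjusted p = 0.044). *Ddit4l*, an inhibitor of mTORC1, fell by 3.12, *Rbm25*, a splicing factor, by 3.03, *Golm1*, a Golgi membrane protein, by 3.00 and *Stim2*, a calcium sensor of the endoplasmic reticulum, by 2.96. With normexp background correction *Rbm25* came to -1.70 and *Stim2* to -1.72. *Actl9*, an actin-like gene, fell by 2.96 and *Zmynd17* by 2.96, though 6 of 12 *Smn1*deltaSKM myofibers lay within the WT range of *Zmynd17*.

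**Figure D3:**
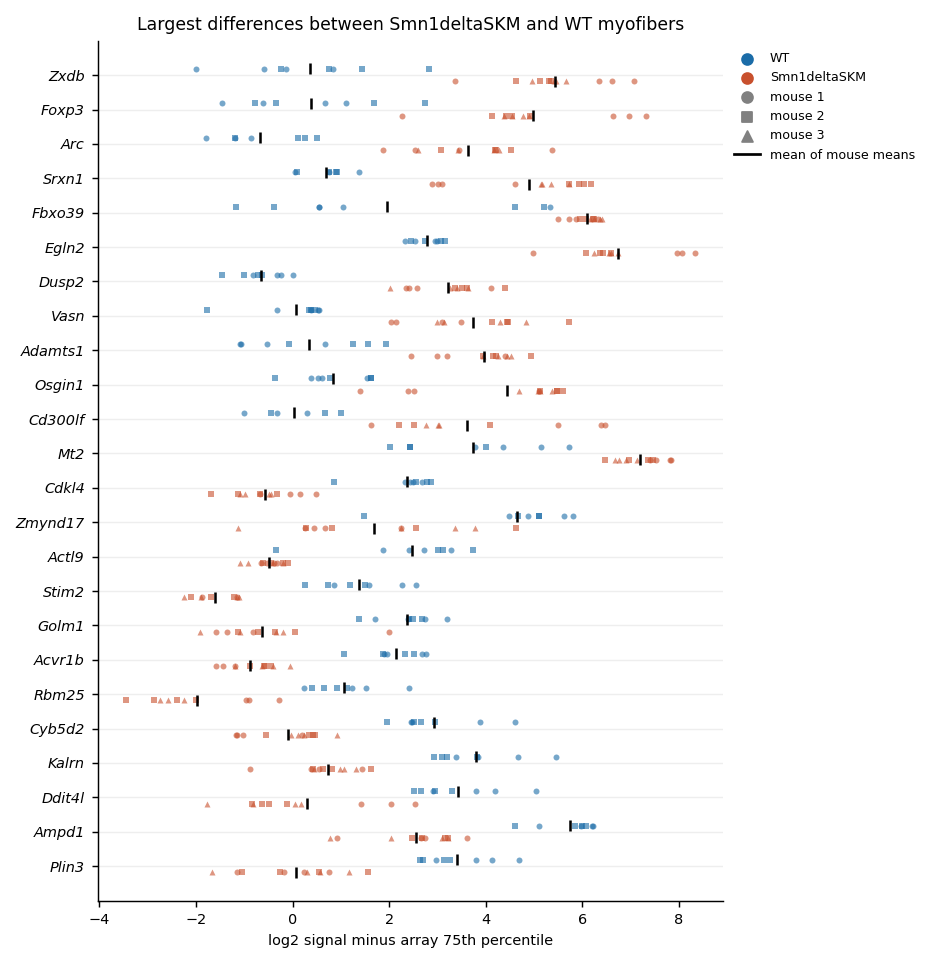
Log2 signal minus the array's 75th percentile (x axis) of the 12 genes with the largest called rises and the 12 with the largest called falls (y axis), by the naming rule. Each point is a myofiber (WT blue, *Smn1*deltaSKM orange, shapes are mice) and bars are means of mouse means. *Zxdb* and *Plin3* do not overlap between genotypes, whereas *Zmynd17* does.

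Immediate early genes, which cells switch on within minutes of a stimulus, stood above the other genes. Of 41 tested, 12 were called higher and 1 lower, and their median difference was 0.82 against -0.14 over all genes. *Rrad*, a small GTPase that inhibits calcium channels, lay between -0.68 and 0.19 on the 4 WT arrays with a value and between 4.28 and 6.95 on all 12 *Smn1*deltaSKM arrays (median 5.85). It rose by 6.20 (standard error 0.864, adjusted p = 0.00763). The WT mean of *Rrad* rests on those 4 arrays alone, so this p-value does not cover the WT arrays without a value. *Arc*, a cytoskeletal gene of active neurons, rose by 4.33 and *Dusp2*, a phosphatase of MAP kinases, by 3.87, and in both every *Smn1*deltaSKM myofiber was above every WT one with a value. *Myc*, a growth transcription factor, rose by 3.45 and *Klf6*, a zinc finger factor, by 2.91. *Dusp6*, another such phosphatase, fell by 2.11. *Fos* (0.08), *Jun* (-0.91) and *Junb* (0.45), the AP-1 subunits, were not called.

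Genes of the integrated stress response, which cells start when eIF2 is phosphorylated, were called higher in 5 of 25 and lower in 2. *Atf3*, a transcription factor of this pathway, rose by 2.87, *Slc7a5*, a carrier of large neutral amino acids, by 2.29 with values on 4 of 8 WT arrays (1.36 with normexp), and *Ddit3*, the transcription factor CHOP, by 2.28. *Gpt2*, an alanine transaminase, fell by 2.33 and *Vldlr*, a lipoprotein receptor, by 1.37. *Atf4* itself differed by -0.19 and was not called. Of 18 tested myokines and growth factors 5 rose and none fell. *Cxcl1*, a chemokine, ran from -2.34 to -0.82 on 4 WT arrays and from 0.11 to 4.29 in *Smn1*deltaSKM (median 2.15), and rose by 4.01, a call kept under the slide block (limma, adjusted p = 0.0411). *Gdf15*, a stress hormone, rose by 1.49 and *Vegfa*, the angiogenic growth factor, by 1.78. Of 27 tested p53 genes 2 (7.41%) rose and 4 (14.8%) fell, near the 7.67% and 14.1% of all genes, with *Sertad1* at 2.99 and *Ddit4* at -1.92. Of 31 tested genes of the unfolded protein response 2 rose and 5 fell, among them *Creb3l2* (-1.98), and their median of -0.22 was close to that of all genes.

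Of 38 tested antioxidant genes 12 (31.6%, against 14.1% of all genes) were called lower and 3 (7.89%, against 7.67%) higher. *Srxn1*, which repairs oxidised peroxiredoxins, ran from 0.04 to 1.38 in WT (median 0.75) and from 2.88 to 6.18 in *Smn1*deltaSKM (median 5.25), and rose by 4.21. *Hmox1*, heme oxygenase, rose by 3.28 and by 2.84 on its second probe, and *Nfe2l2*, the transcription factor NRF2, rose by 1.64. *Osgin1*, a gene induced by oxidative stress, rose by 3.61. In the other direction *Txnip*, an inhibitor of thioredoxin, fell by 2.87 and by 3.23 on its second probe, *Gstm4*, a glutathione transferase, by 2.60 and *Gpx3*, a glutathione peroxidase, by 2.46. Of 30 antioxidant genes with a RefSeq promoter 6 held the letters TGACNNNGC, read on both strands over 250 bases before the start, as did 11.5% of all genes. The windows of *Srxn1* and *Osgin1* did not hold them. Only this exact spelling was searched, so other spellings of a binding site were not counted in these windows.

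The metallothioneins, small proteins that bind zinc and copper, rose together. *Mt2* ran from 2.01 to 5.73 in WT (median 3.89) and from 6.46 to 7.83 in *Smn1*deltaSKM (median 7.24), with no overlap, and rose by 3.46 (standard error 0.699, adjusted p = 0.0165). *Mt1* ran from 3.44 to 6.31 in WT (median 4.11) and from 5.56 to 7.21 in *Smn1*deltaSKM (median 6.36), overlapping, and rose by 1.90, with 1.99 on its second probe. Of 13 tested genes of zinc handling the other called ones were lower: the zinc transporters *Slc39a13* (-2.46), *Slc39a1* (-1.39) and *Slc30a4* (-1.27). The 250 bases before the start of each metallothionein gene (RefSeq, GRCm38.p6, both on the plus strand) are shown because the letters TGCGCNC or TGCACNC, the core of the metal response element, are found there. Capitals mark the matches on either strand, of which the *Mt2* window has 3 and the *Mt1* window 1, and 23.8% of all genes have at least 1. The counts depend on the annotated start, and bases beyond it were not searched. The *Mt2* window is chr8:94172368-94172617 and that of *Mt1* is chr8:94178839-94179088.

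Mt2: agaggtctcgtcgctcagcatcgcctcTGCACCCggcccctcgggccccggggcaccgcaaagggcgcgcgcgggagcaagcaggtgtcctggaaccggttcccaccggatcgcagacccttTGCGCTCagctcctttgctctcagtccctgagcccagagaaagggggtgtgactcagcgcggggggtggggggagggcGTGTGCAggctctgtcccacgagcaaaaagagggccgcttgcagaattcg
Mt1: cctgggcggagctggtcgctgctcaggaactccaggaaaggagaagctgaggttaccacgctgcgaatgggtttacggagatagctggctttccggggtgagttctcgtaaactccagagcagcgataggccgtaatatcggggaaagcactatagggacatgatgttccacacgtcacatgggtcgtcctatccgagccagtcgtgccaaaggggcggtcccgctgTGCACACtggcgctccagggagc

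RNA-processing genes were more often lower than higher, as were all genes (14.1% against 7.67%). Of 72 tested SR and hnRNP splicing regulators, 17 were called lower (23.6%, against 14.1% of all genes) and 2 higher. *Celf2*, a splicing regulator of muscle and brain with values on 10 *Smn1*deltaSKM arrays, ran from 2.05 to 4.15 in WT (median 3.38) and from -0.35 to 0.99 in *Smn1*deltaSKM (median 0.23). It fell by 2.83 and kept its call under the slide block (limma, adjusted p = 0.044), but with quantile normalization it came to -1.34, not called. *Hnrnpa1* fell by 2.49 on its brighter probe, whereas its other probe differed by 0.73, and *Taf15* fell by 2.42. *Mbnl1*, which directs adult splicing in muscle, ran from 3.47 to 5.13 in WT (median 4.59) and from 0.74 to 3.25 in *Smn1*deltaSKM (median 2.59), and fell by 2.04. Of 6 tested members of the SMN complex *Gemin6* was called, with a rise of 1.92 (adjusted p = 0.0153). Of 15 Sm and LSm proteins 1 was called, *Lsm2* at -1.13 (1.07 on its other probe). Of 36 spliceosomal snRNP proteins 6 (16.7%) were lower and none higher, and of 20 snRNP biogenesis factors 4 (20%) were lower. Among these 4 were *Ints3* of the Integrator complex (-2.46) and *Prmt5*, which methylates Sm proteins (-1.66). Of 36 replication-dependent histone genes 1 was called higher, *Hist1h1t* at 3.05, and 5 lower.

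Messenger RNA export and decay genes were called lower in 12 of 47 and higher in none, with *Pan3*, a deadenylase subunit, at -2.25, *Thoc5* at -2.06 and *Cnot1* at -1.84. Chromatin modifiers were called lower in 16 of 64 and higher in 3. *Tet2*, which oxidises methylated cytosine, fell by 2.54, *Wbp7*, a histone methyltransferase, by 2.33 and *Sirt6* by 1.94, while *Sirt1*, another deacetylase, rose by 1.28. Nuclear pore and transport genes were lower in 13 of 56, with the importin *Kpna1* at -2.70, and higher in 1, the lamin *Lmnb2*, at 2.39. Of 53 subunits of RNA polymerase II and Mediator 7 were lower, a share of 13.2% that was near the 14.1% of all genes, and none higher. The 7 were all of Mediator, with *Med12* at -2.21.

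Translation genes lay below the median of all genes. The median of 83 ribosomal proteins was -0.59, 78 of them lay below 0 and 11 were called lower, a share of 13.3% against 14.1% over all genes. The brightest bin of genes, at levels from 3.01 to 9.54, had a median of -0.43 and 16.7% called lower. Median levels of the ribosomal proteins lay between 5.13 and 5.78 across the mice, inside that bin. The part of level in these medians was not tested. Of 52 translation factors, with a median of -0.53, 8 were lower, with *Eef2* at -1.73, and 1 higher, *Eif1a* at 2.11. Of 21 cytosolic tRNA synthetases 8 (38.1%) were lower and none higher, with a median of -0.51 and *Mars* at -2.02 and *Iars* at -1.90. Relative to all genes, the medians of ribosomal proteins and translation factors were -0.45 and -0.39. They came to -0.20 and -0.21 with quantile normalization, and to -0.18 and -0.17 with the authors' normalized values. The tRNA synthetases moved less, from -0.37 to -0.34 with either.

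Of 49 tested genes of cullin-RING ligases 18 (36.7%) were called lower and none higher. *Cul5*, a cullin scaffold, ran from 0.93 to 2.73 in WT (median 1.41) and from -2.58 to -0.92 in *Smn1*deltaSKM (median -1.66). It fell by 3.17, and *Cops4*, of the signalosome that removes NEDD8 from cullins, by 2.51. *Asb2*, which targets filamins, fell by 2.31. Of 29 tested atrophy genes 9 were lower and 1 higher. *Fbxo32*, atrogin-1, fell by 1.63, whereas *Trim63*, MuRF1, differed by 0.84 and was not called. *Acvr2a*, a receptor of myostatin, fell by 2.70 and *Foxo4*, a FoxO transcription factor, rose by 1.44. Of 44 proteasome subunits 7 (15.9%) were lower and none higher, and of 55 heat shock proteins and chaperones 8 were lower and 1 higher.

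**Figure D4:**
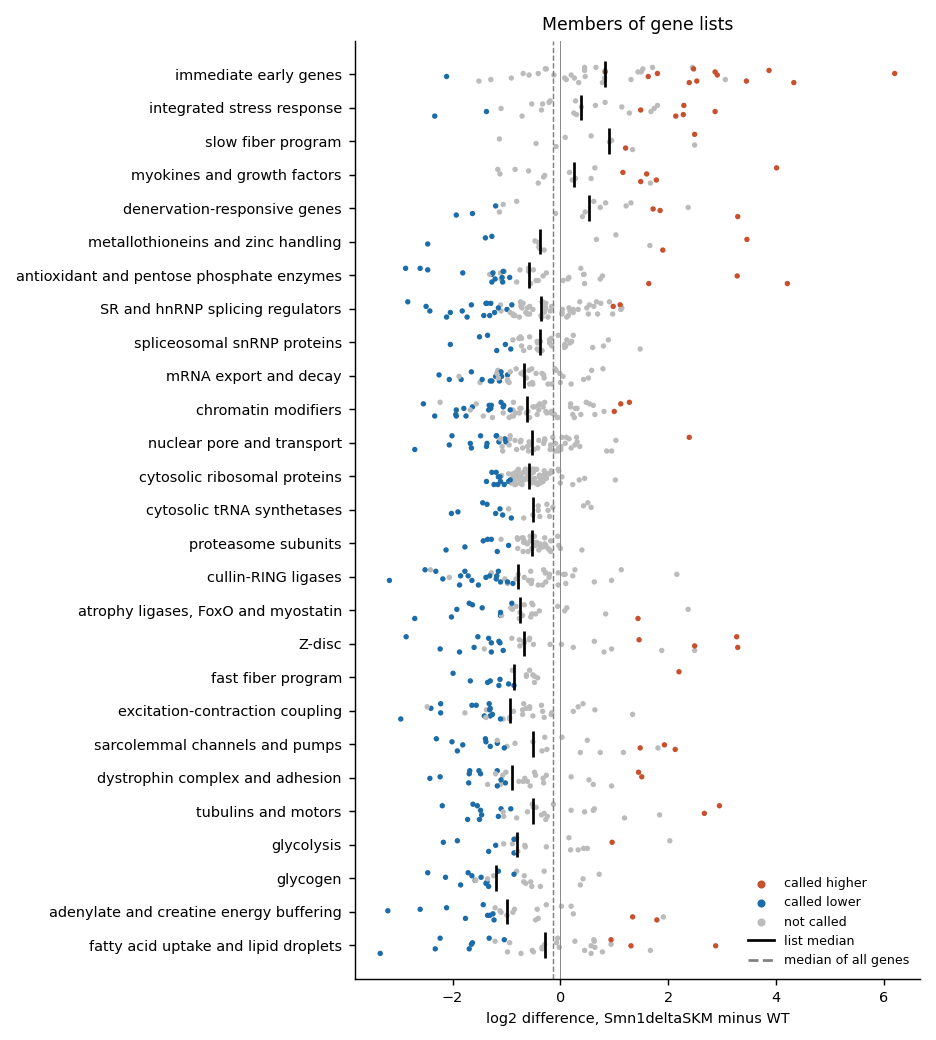
Log2 difference of *Smn1*deltaSKM minus WT (x axis) for each tested member of 27 gene lists (y axis). Orange points were called higher, blue points called lower and grey points not called; black bars are list medians and the dashed line is the median of all genes. Glycogen genes lie lowest, with a median of -1.19, and slow fiber genes highest, with 0.91.

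Excitation-contraction coupling turns the action potential into calcium release. Of 38 tested genes of this process 13 (34.2%) were lower and none higher, with a median of -0.94. *Ryr1*, the calcium release channel, ran from 5.50 to 6.67 in WT (median 6.16) and from 3.96 to 5.15 in *Smn1*deltaSKM (median 4.67), without overlap, and fell by 1.56 (standard error 0.286, adjusted p = 0.0135). *Stim1*, the sensor of store-operated calcium entry, fell by 2.22, with -2.27 on its second probe, and its partner channel *Orai1* by 2.22. *Camk2a*, a calcium-dependent kinase, fell by 2.40. The dihydropyridine receptor subunit *Cacna1s* differed by -1.37 and was not called.

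Of 17 tested genes of the fast fiber program 8 (47.1%) were lower and 1 higher. *Mylpf*, the fast regulatory light chain, ran from 4.05 to 5.96 in WT (median 5.73) and from 2.70 to 4.42 in *Smn1*deltaSKM (median 3.52), and fell by 1.99. *Myh1*, the myosin of type 2X fibers, rose by 2.20, but its myofibers overlapped, from -0.66 to 3.69 in WT and from 0.55 to 6.77 in *Smn1*deltaSKM. *Myh4*, the myosin of type 2B fibers, differed by -0.42 and *Myh7*, the slow myosin, by -0.08, and neither was called. Of 11 tested slow fiber genes *Fhl1* (2.49) and the slow troponin *Tnni1* (1.21) rose. Of 19 tested thick filament genes 5 were lower and 2 higher, the other rise being that of *Myh7b* (2.12), and of 15 thin filament genes 3 were lower, among them *Tmod4* (-1.68).

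Of 32 genes of the Z-disc, which anchors the thin filaments, 11 (34.4%) were called lower and 4 (12.5%) higher. *Ankrd1*, a stretch-responsive ankyrin repeat gene, ran from -0.61 to 2.85 in WT (median 1.48) and from 2.30 to 5.59 in *Smn1*deltaSKM (median 4.79), and rose by 3.29. Its relative *Ankrd2* rose by 3.27. *Myot*, myotilin, fell by 2.86 and *Myoz3*, a binding partner of calcineurin, by 2.23. Of 32 genes of the dystrophin complex and adhesion 11 were lower and 2 higher. *Dag1*, dystroglycan, ran from 4.82 to 5.87 in WT (median 5.35) and from 2.37 to 3.49 in *Smn1*deltaSKM (median 2.93). It fell by 2.42 and kept its call under the slide block (limma, adjusted p = 0.0396). *Dmd*, dystrophin, differed by -1.11 and was not called. Of 30 tubulins and motors 10 were lower, 7 of them subunits of dynein or dynactin, which carry cargo along microtubules, and 2 tubulins were higher, *Tubb6* at 2.95 and *Tuba1c* at 2.67. Of 25 channels and pumps 9 were lower and 3 higher, with the sodium pump subunits *Atp1b2* at -2.30 and *Atp1b1* at 2.13. Of 29 actin regulators linked to SMN 6 were lower, among them *Rhoa* at -2.22.

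Of 19 tested neuromuscular junction genes 3 (15.8%) were lower and none higher, among them *Chrne*, the adult acetylcholine receptor subunit, at -1.50. Of 18 denervation-responsive genes 3 (16.7%) were higher and 3 (16.7%) lower, with a median of 0.54 against -0.14 over all genes. *Ankrd1*, described above, *Igfn1*, a muscle protein gene (1.85), and *Gdf5*, a BMP ligand (1.72), rose, and *Hdac4*, a deacetylase (-1.93), *Fbxo32* and the perinatal myosin *Myh8* (-1.20) fell. *Chrna1* (-1.13), *Chrng* (-0.81) and *Myog* (0.46), which rise in denervated muscle, were not called. Of 23 myogenic regulators and MEF2 factors 4 were lower, with *Mef2d* at -1.90.

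Transcripts for making, using and controlling energy stores were described next, and the stores themselves were not measured. Of 26 tested glycogen genes 12 (46.2%) were lower and none higher, with a median of -1.19. *Pygm*, the muscle phosphorylase that breaks glycogen down, ran from 7.39 to 8.53 in WT (median 8.14) and from 5.11 to 7.09 in *Smn1*deltaSKM (median 6.47), and fell by 1.64 (standard error 0.305, adjusted p = 0.0141). *Gsk3a*, which inhibits glycogen synthase, fell by 2.13. Of 25 genes of adenylate and creatine buffering 9 were lower and 2 higher. *Prkag3*, the AMPK subunit of fast fibers, fell by 2.60 and *Ckm*, muscle creatine kinase, by 1.76, while *Prkag2*, another AMPK subunit, rose by 1.79. Of 22 glycolytic genes 6 were lower and 1 higher, with *Pfkfb3* at -2.17. Of 32 genes of insulin signalling 9 were lower and 1 higher. That rise was of *Slc2a1*, the glucose transporter GLUT1, which ran from -1.21 to 0.11 in WT (median -0.36) and from 1.00 to 3.26 in *Smn1*deltaSKM (median 2.35). It rose by 2.71, whereas *Slc2a4*, the insulin-responsive GLUT4, differed by -1.29 and was not called. Of 33 lipid genes 8 were lower and 3 higher, with *Plin5* at -2.32 and *Cidea*, a lipid droplet protein of brown fat, at 2.88.

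**Figure D5:**
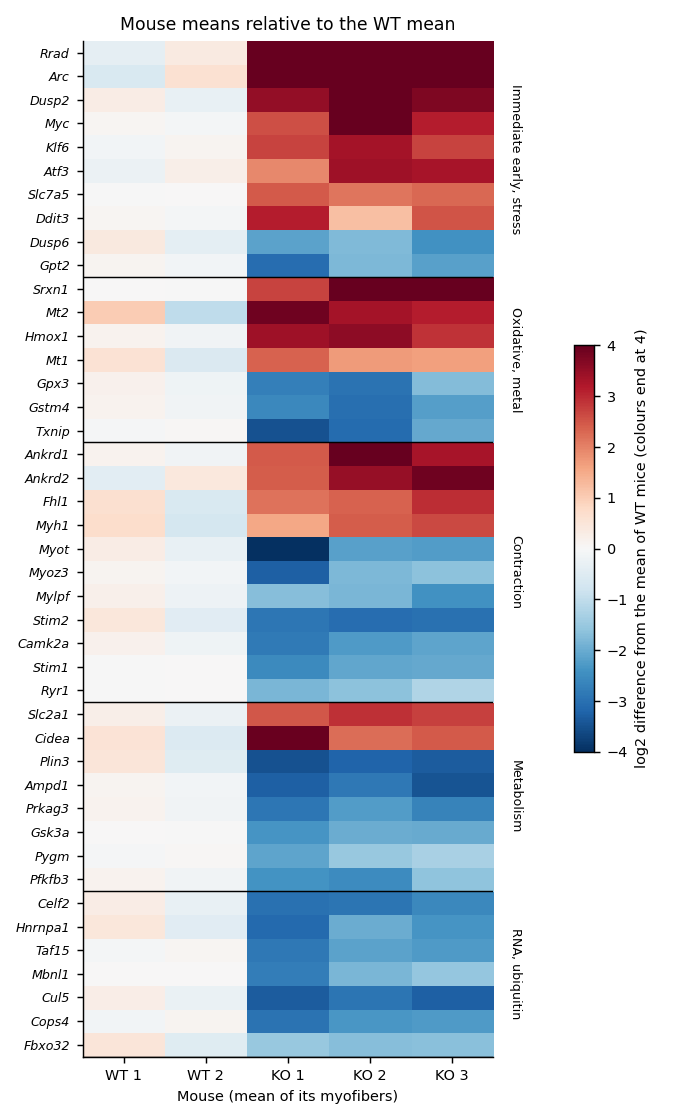
Mouse means of selected called genes (y axis) relative to the mean of the 2 WT mice, as log2 differences (colour, ending at 4), for each mouse (x axis, KO is *Smn1*deltaSKM). All 3 *Smn1*deltaSKM mice lie on the same side for every gene shown, as they do for all 3664 called genes with a value in every mouse. The genes were called on these same means, so this placing is no separate support. Mouse means differ in size, as for *Srxn1* and *Myot*.

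Membrane traffic genes were called lower in 12 of 49 and higher in 1. *Gosr1*, a Golgi SNARE, fell by 2.18, *Nsf*, which takes SNARE complexes apart, by 2.01 and *Ap2a1*, an adaptor of endocytosis, by 1.76, while *Arf4*, a small GTPase of the Golgi, rose by 1.28. Of 13 genes of calcineurin signalling, which couples calcium to NFAT factors, 5 were lower and 1 higher. They included the regulatory subunit *Ppp3r1* (-2.36) and the catalytic subunits *Ppp3cb* (-1.40) and *Ppp3ca* (-1.27). Of 34 genes of TGF-beta and BMP signalling 5 were lower, 3 of them the activin receptors *Acvr1b*, *Acvr2a* and *Acvr1*, and 1 was higher, the activin antagonist *Fstl3* at 1.09.

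Of 22 polyamine and one-carbon genes 6 (27.3%, against 14.1% of all genes) were called lower and 2 (9.09%, against 7.67%) higher. *Smox*, which oxidises spermine, fell by 2.43 and by 3.11 on its second probe, and *Azin1*, which keeps ornithine decarboxylase active, rose by 2.49. Of 21 sterol synthesis genes 2 were lower, among them *Fdps* (-1.15), and none higher. Of 25 cell cycle genes 3 were lower, among them the inhibitor *Cdkn1b* (-2.37), and none higher. Of 17 clock genes 2 were lower, among them *Hlf* (-2.01), and of 19 interferon and antigen presentation genes 1 was, *Irf2* (-2.29). Of 22 genes linked to forms or modifiers of spinal muscular atrophy, *Smn1* among them, 3 (13.6%, against 14.1% of all genes) were lower and none higher. The 3 were *Ncald* (-1.91), a calcium sensor, *Dync1h1* (-1.48), the dynein heavy chain, and *Uba1* (-1.35), the ubiquitin-activating enzyme.

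Every *Smn1*deltaSKM mouse lay on one side of both WT mice in all 3664 called genes with a value in each mouse, a placing that the 16939 genes with such values showed in 55.4%. Genes were called on these same mouse means, which favours this placing, so it is no separate support for the calls. Of 946 called genes with a second probe, that probe had the same sign in 77.5%, against 68.4% of all genes with 2 or more probes. The second probe was called in the same direction in 325 and in the other direction in 29.

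Genes at the detection limit were described separately, with no test. Of 55681 probes, 26 were well above the background on all 12 *Smn1*deltaSKM arrays and no WT array. Another 10 were so on all 8 WT arrays and no *Smn1*deltaSKM array. The *Smn1*deltaSKM arrays had values for more probes (median 31433.5, against 25156 in WT), and the part of this in the 2 counts was not tested. *Sgms2*, a sphingomyelin synthase, was at least 12-fold higher in *Smn1*deltaSKM, *Rasgef1b* at least 9.53-fold and *Runx1*, a transcription factor that denervated muscle also expresses, at least 5.34-fold, though another *Runx1* probe was above the background on 1 WT array. *Gtf3c1*, of a polymerase III initiation factor, was at least 7.06-fold lower, *Zbtb5* at least 4.46-fold and *Eps15*, an endocytic adaptor, at least 4.41-fold. A bound sets the mean of the bright genotype against the dimmest signal well above the background on the arrays of the other. *Tada3*, of the second group, also had a tested probe at -1.67.

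Markers of other cell types were low but not absent. Of 7 tested immune markers *Cd68* (2.99) and *Ptprc* (1.33), genes of macrophages and leukocytes, were called higher. The others went both ways and were not called: *Csf1r* (-0.50), *C1qb* (-0.25), *Itgam* (-0.14), *Cd14* (0.98) and *Cd3e* (0.75). Of 6 fibroblast markers *Pi16* (1.86) was called higher, and of 4 pericyte and smooth muscle markers *Tagln* (1.07) was. *Cd68* ran from -2.35 to 0.36 in WT and from 0.45 to 3.77 in *Smn1*deltaSKM. The summed immune markers overlapped, at 24.2 to 37.2 in WT and 21.5 to 37.1 in *Smn1*deltaSKM once *Itgam*, whose probe was bright on every array, was left out. Summed pericyte and smooth muscle markers ran from 3.29 to 8.83 in WT without array 7 (23.2 on that array) and from 7.34 to 16.8 in *Smn1*deltaSKM (median 11.7). Summed adipocyte markers had a median of 1.51 in WT and 3.75 in *Smn1*deltaSKM, with ranges of 1.11 to 5.88 and 1.53 to 11.4 that overlapped. Summed red blood cell markers ran from 0.938 to 43.7 in *Smn1*deltaSKM. Single called markers of other cells were *Hba-a2* of red blood cells (1.65), *Sdc4* of satellite cells (1.74), *Vwf* of endothelium (-1.12), and *Lep* (-1.36) and *Plin1* (0.97) of fat, and of 3 Schwann cell markers none was called. Without WT array 7, a check added after seeing the data, limma called 3427 genes, and all 24 genes with the largest changes were among them. The part of these cells in the differences was not tested.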

How the data were processed

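RNA of single tibialis anterior myofibers was amplified and hybridised in 1 colour to Agilent mouse arrays, 1 myofiber per array. The deposited intensity values are the scanner signals that Agilent Feature Extraction 10.7.3.1 made for the authors, background-subtracted but not scaled between arrays, and the mm9 build is that of the probe positions. The deposited value table holds linear intensity that the authors had normalized within and between arrays, by a method not given in the sources used here, and was an alternative.

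Of 55681 probes, values were left out where a spot was not found, not well above the background or non-uniform. Probes with values on 75% of the 20 arrays, counted over both genotypes together, were kept (22882 probes, 17059 genes), the brightest per gene. Signals were taken to log2 and set relative to the array's own 75th percentile, and myofibers of a mouse were averaged. limma 3.58.1 (R 4.3.3) compared the averages of mice. Mice treated with AFS (amniotic fluid stem) cells entered the model for the spread only, and p-values were adjusted over all genes by Benjamini-Hochberg. The script was tested on simulated data. The number of arrays limits the precision, and myofibers of 1 mouse are not independent mice.

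Named genes are the 12 largest called rises and falls with a symbol, values on 6 WT and 9 *Smn1*deltaSKM arrays and mice on one side, outside the MitoCarta and autophagy sets, and in each of 62 lists up to 3 called members per direction plus members of known role. The members and lists were chosen with earlier results of these data known. WT and *Smn1*deltaSKM mice share numbers in the labels but were different animals, so the numbers were not taken as pairs. Values of a few list members are not reported here.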

Additional observations from a re-analysis of the deposited data

Results flagged for a closer look

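Among 27 measures of the 8 WT arrays, 6 had an array far from the others by Dixon's test, where chance gives about 1 in 20. The number of probes with a value on WT array 8 was 34012, above all other WT arrays. The lowest WT myofiber lay far below the rest for *Vasn* (-1.77), *Actl9* (-0.34), *Zmynd17* (1.48), *Cdkl4* (0.85) and the dimmer *Smn1* probe (0.63).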

How the results depend on the processing

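The counts of calls depended on the unit of replication. limma called 6035 genes (2314 higher, 3721 lower) with myofibers as samples and the mouse as a random block, 9269 (3759 higher, 5510 lower) with myofibers as independent samples, and 94 (28 higher, 66 lower) with slide as a random block. With the mouse number as a replicate block it called 2252 (754 higher, 1498 lower); same-numbered mice are different animals, and their deviations from the group means correlated at 0.15 and 0.03. Leaving out 1 mouse gave between 0 and 7385 calls, 0 to 3103 of them higher and 0 to 4282 lower. Higher calls were 1965 with the measured signal kept and 761 for probes with values on every array, and lower calls were 1376 and 873 after centring on the median or scaling to the 75th percentile of probes seen everywhere. The brighter *Smn1* probe, whose difference was not called, changed sign without 1 mouse at a time (-0.07 to 0.45), and the mean of both probes gave -0.75. The dimmer probe lost its call when scaled to the 75th percentile of probes seen everywhere (-1.36), with slide as a random block (-1.75) and without WT mouse 1, WT mouse 2 or *Smn1*deltaSKM mouse 2, among leave-outs from -1.78 to -1.57. *Lep* turned to 1.14 with quantile normalization and 1.32 with the signal kept, and *Setd1b* to -0.47 with the mean of probes. Relative to all genes, the list medians changed sign under another scaling for 4 lists, those of ER chaperones, lipid droplets, cell cycle and satellite cells. With the authors' value table some others shrank, as for glycolysis (-0.66 to -0.21), the fast fiber program (-0.72 to -0.35) and thin filaments (-0.44 to -0.09). Glycogen moved less (-1.06 to -0.87), and the slow fiber program grew (1.04 to 1.15). Without WT array 7, an alternative chosen after seeing the data, 3427 genes were called. Of the 24 genes with the largest changes, 5 were called with slide as a random block, 22 with the mouse number as a block and 0 without either WT mouse. The cause of these changes was not tested.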
